A study of Caenorhabditis elegans with 12 samples.

Results

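The microRNA hairpins mir-240 and mir-786 of Caenorhabditis elegans were followed as a pair because they are neighbours on the X chromosome. They were taken by name as 2 of the 250 rows of a table of reads per hairpin, and both were among the 181 hairpins with enough reads to be tested. The rows are named cel-mir-240 and cel-mir-786. The 12 small RNA libraries were made from whole hermaphrodites of the wild-type strain N2. Worms were aged 5 or 15 days. They had been given either 0.1% DMSO, the solvent, or 100 nM rotenone, an inhibitor of complex I of the mitochondrial respiratory chain. Rotenone was given for only 24 hours from the fourth larval stage (L4), and the labels state no duration for DMSO. The 4 groups, day 5 DMSO, day 5 rotenone, day 15 DMSO and day 15 rotenone, hold 3 libraries each. All worms are of one unmodified strain. The starting point of the day count is not stated in the labels, nor is whether the rotenone worms also received the solvent or whether the 3 libraries of a group came from separate cultures. The p-values therefore measure only how far these libraries scatter, which may be technical.

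A microRNA is cut from an arm of a folded precursor, the hairpin, and pairs through its seed, the bases near its 5′ end, with sites in messenger RNAs, which lowers their translation or stability. Hairpins that lie close together on one strand are often made from one primary transcript and can still reach different levels through cutting and turnover. In C. elegans, worms that lack both mir-240 and mir-786 have long and irregular defecation cycles; miR-786 is the member tied to this rhythm, acts in the posterior intestine, where the calcium wave of each cycle starts, and has the fatty acid elongase gene elo-2 as a target. By their seeds miR-240 is related to the vertebrate miR-193 family and miR-786 to vertebrate miR-365, which are also neighbours in vertebrate genomes.

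In the Ensembl annotation of the WBcel235 assembly mir-240 covers 97 bases of the plus strand of chromosome X, from 7882622 to 7882718, and mir-786 covers 90 bases, from 7882751 to 7882840. Only 32 bases lie between them. No protein-coding gene contains the pair: C39D10.8 ends 1673 bases before it on the other strand, and pcyt-2.2, on the same strand, starts 1453 bases after it. Each hairpin has an annotated microRNA on both arms, of 23 and 22 bases in mir-240 and of 24 and 23 bases in mir-786. The table counts both arms together, so a shift between the arms cannot be read from it. A further hairpin, mir-8203, is annotated on the other strand within mir-786, from 7882764 to 7882824, and has a row of its own in the table. Whether the authors' counting used the strand of a read is not given in the sources used here, so reads of mir-786 and mir-8203 may have been exchanged.

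Total hairpin reads ranged from 4215830 to 11045174 per library and were lower at day 15 than at day 5 in every library. Reads of mir-240 numbered 30689 to 61119 per library and those of mir-786 numbered 567 to 1562, which is a counting error of at most 0.571% for mir-240 and at least 2.53% for mir-786. The intestinal marker mir-60 was well measured in these whole worms, at 989 to 2495 CPM, as were markers of muscle and of oocytes and embryos. CPM are counts relative to a library's hairpin total, adjusted by edgeR's TMM factors. The neuronal markers lsy-6, mir-124 and mir-791 were scarcer, with means of 65.1, 25.2 and 17.7 CPM without the TMM factors. Libraries had been run on lane L006 or L007 per the labels. Lane L006 carried 2 libraries of each day 5 group and 1 of each day 15 group, so that treatments at one age had the same lanes and the ages did not.

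The pair is made of a plentiful and a scarce hairpin. Over the 12 libraries mir-240 held a mean of 0.678% of hairpin reads and stood 27th of 250 hairpins in mean level, against 17.974% for mir-82, the most abundant one. Its partner mir-786 held a mean of 0.0160% and stood 85th. Per base of annotated hairpin the mean level of mir-240 was 39.2 times that of mir-786, and without the division by length it was 42.3 times. In single libraries mir-240 ranked between 22nd and 37th, and mir-786 between 73rd and 100th.

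**Figure D1:**
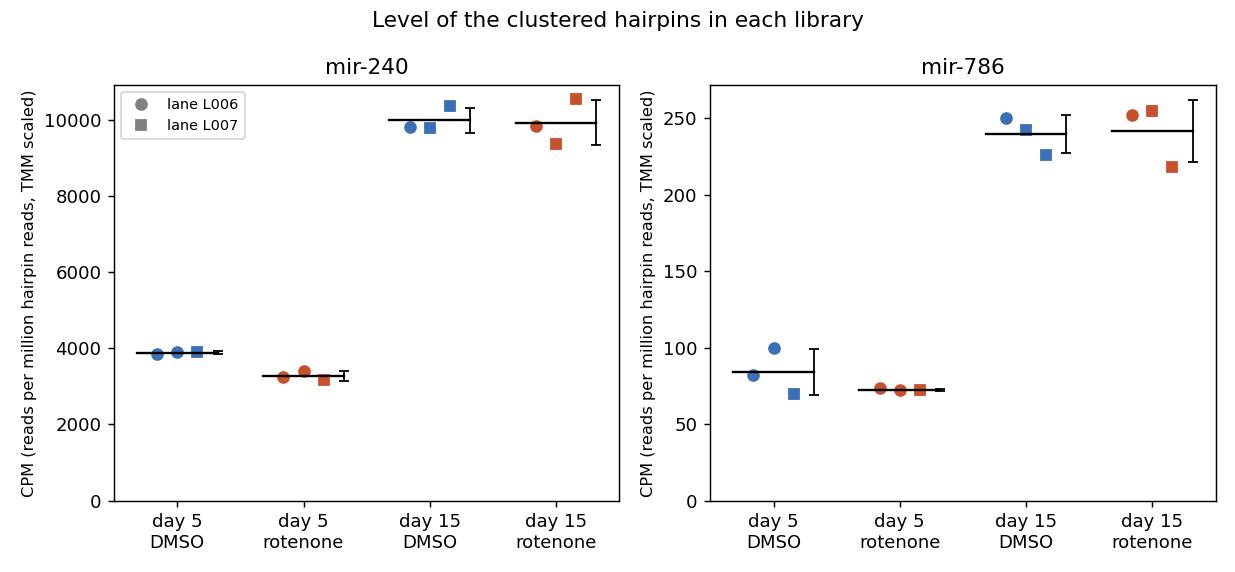
Level of mir-240 (left) and mir-786 (right) in each of the 12 libraries, in CPM scaled by TMM. Circles are lane L006, squares lane L007, and the bar and whisker give the mean and SD of 3 libraries; all day 15 libraries lie above all day 5 libraries for both hairpins.

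With age both hairpins rose, in worms that had received the solvent and in worms that had received rotenone. In DMSO, mir-240 measured 3841, 3887 and 3913 CPM at day 5 and 9800, 9781 and 10351 CPM at day 15. In rotenone it measured 3242, 3401 and 3163 CPM at day 5 and 9840, 9370 and 10539 CPM at day 15. Each day 15 library stood above every day 5 library, so the ages did not overlap, as was the case for 38.7% of tested hairpins in this direction in DMSO and 38.1% in rotenone. The rise of mir-240 in DMSO was 2.57-fold, from 3880 ± 36.5 to 9977 ± 324 CPM (SD, n = 3), or 1.36 ± 0.06 on the log2 scale (± SE; edgeR quasi-likelihood adjusted p = 1.05e-16). In rotenone it was 3.03-fold, from 3269 ± 121 to 9916 ± 588 CPM (log2 1.60 ± 0.06, adjusted p = 8.59e-18 by the same test).

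For mir-786 the day 5 libraries held 82.4, 99.7 and 69.6 CPM in DMSO and 73.3, 72.0 and 72.5 CPM in rotenone. At day 15 they held 250.5, 242 and 226 CPM in DMSO and 252, 255 and 218 CPM in rotenone. Here too the ages were apart, with the lowest day 15 library at 218 CPM and the highest day 5 library at 99.7 CPM. The rise of mir-786 in DMSO was 2.85-fold, from 83.9 ± 15.1 to 240 ± 12.4 CPM (SD, n = 3), or 1.51 ± 0.10 on the log2 scale (edgeR quasi-likelihood adjusted p = 8.61e-14). In rotenone it was 3.33-fold, from 72.6 ± 0.664 to 242 ± 20.5 CPM (log2 1.74 ± 0.10, adjusted p = 6.27e-15 by the same test).

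Changes with age were common in the table. In DMSO 80.1% of the 181 tested hairpins were called at an adjusted p under 0.05 and 38.1% were called higher, and in rotenone these shares were 75.1% and 37.6%, so that a call by itself does not set the pair apart. By size of change, mir-786 was 14th and mir-240 17th from the top of 181 in DMSO, and 8th and 10th in rotenone, while the median hairpin changed by -0.02 and 0.01 on the log2 scale. Within lane L006 the rise of mir-240 was 1.37 in DMSO and 1.66 in rotenone on the log2 scale, and within lane L007 it was 1.35 and 1.59. Those of mir-786 were 1.49 and 1.88 within lane L006 and 1.74 and 1.64 within lane L007. Each within-lane rise passed in its fit, but lane L006 holds a single day 15 library of each treatment and lane L007 a single day 5 library, so the lone library was assumed to vary like the groups with more than 1. In lane L006 74.9% (DMSO) and 72.2% (rotenone) of hairpins were called, and in lane L007 64.6% and 61.2%.

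**Figure D2:**
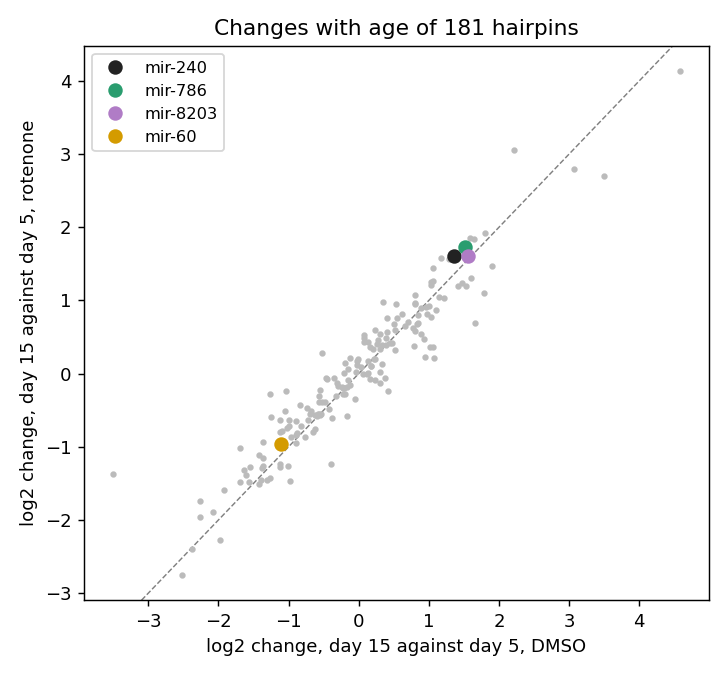
Log2 change from day 5 to day 15 in DMSO (x axis) and in rotenone (y axis) for the 181 tested hairpins in grey, with mir-240, mir-786, the opposite-strand hairpin mir-8203 and the intestinal marker mir-60 in colour. The first 3 lie together between 1.36 and 1.74 on both axes, and mir-60 lies at -1.11 and -0.96; the 2 axes share no library.

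The other tissue markers moved in both directions with age. In whole worms, fewer cells of a type and less RNA per cell cannot be told apart. The intestinal marker mir-60 fell by 1.11 on the log2 scale in DMSO and by 0.96 in rotenone (adjusted p = 5.81e-14 and 1.37e-12, edgeR quasi-likelihood test), opposite to the pair. The muscle hairpin mir-1 and all 3 neuronal hairpins, lsy-6, mir-124 and mir-791, also fell in both treatments. Of all 181 tested hairpins 69 were called higher and 76 lower with age in DMSO, and 68 and 68 in rotenone. A fall of a single marker, such as mir-60 or mir-1, therefore does not by itself set that marker apart. All 8 members of the oocyte and embryo miR-35 family rose in both treatments, by 0.48 to 1.60 in DMSO and by 0.32 to 1.31 in rotenone. Their summed level was 84654 to 97986 CPM at day 5 and 155436 to 163874 CPM at day 15 in DMSO, and 100256 to 102903 and 160313 to 168917 CPM in rotenone. The level of mir-60 was 1871 to 2495 CPM at day 5 and 989 to 1080 CPM at day 15, that of mir-1 was 407 to 616 and 181 to 224 CPM, and the sum of the neuronal hairpins was 154 to 192 and 41.2 to 54.8 CPM. The part of cell content in the rise of mir-240 and mir-786 was not tested.

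The hairpin on the opposite strand, mir-8203, had few reads, between 34 and 87 per library, which is 3.69 to 9.17 reads for every 100 of mir-786. It rose by 1.56 ± 0.20 on the log2 scale with age in DMSO and by 1.61 ± 0.20 in rotenone (adjusted p = 5.31e-08 and 2.95e-08, edgeR quasi-likelihood test). Its place inside mir-786 means that the 2 rows may not be separate measurements.

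The effect of early rotenone was then compared at each age. At day 5 mir-240 fell 1.19-fold after rotenone, from 3880 to 3269 CPM (log2 -0.25 ± 0.06 SE, 95% interval -0.38 to -0.12; adjusted p = 0.0043, edgeR quasi-likelihood test). All 3 rotenone libraries lay below all 3 DMSO libraries. The same held for its plain share of reads, at 0.374 ± 0.0149% (SD, n = 3) without and 0.334 ± 0.0104% with rotenone. Among the 181 hairpins 25.4% were called in this comparison and 19.3% were called lower, and 27.6% had rotenone libraries wholly below the DMSO libraries.

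For mir-786 the day 5 values overlapped, since DMSO replicate 3, at 69.6 CPM, lay below all 3 rotenone libraries. Its difference was of like size to that of mir-240 and did not pass (log2 -0.21 ± 0.10 SE, 95% interval -0.41 to -0.01; adjusted p = 0.115, edgeR quasi-likelihood test). The spread in DMSO was wide, with an SD of 18.0% of the mean, against 0.915% in rotenone. Without DMSO replicate 3 the difference was -0.32 and passed (adjusted p = 0.0123, edgeR quasi-likelihood test). Without DMSO replicate 2, the highest library, the difference was -0.07 (adjusted p = 0.634, same test). Of all hairpins 25.1% and 21.4% were called in these 2 fits. Within lane L006 the difference of mir-786 was -0.27 and passed, in a fit with 1 library in each day 15 group. Within lane L007, with 1 library in each day 5 group, it was 0.09. Within the same lanes mir-240 was at -0.17 and -0.27.

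The size of the day 5 difference depended on the scaling and on the hairpins entered, which move all hairpins together. The call of mir-240 was kept in 19 of 23 alternatives, 12 of them with a library left out. Another scaling method (RLE) and library size alone were among these. The fall of mir-240 was no longer called when the 3 most abundant hairpins were left out (log2 -0.12, adjusted p = 0.196), with no filter on low counts (-0.16, adjusted p = 0.103) or with hairpins under a mean of 10 CPM removed (-0.04, adjusted p = 0.598). With that stricter filter mir-786 stood at 0.00 (adjusted p = 0.985). The median of the hairpins in a fit, which numbered 131 to 238, shifted from -0.04 to 0.12 over these settings. Relative to that median mir-240 lay at -0.21 to -0.16 and mir-786 at -0.17 to -0.12 in each of 6 scalings and filters. With TMM scaling the markers mir-60 and mir-1 were lower in rotenone at day 5 by a similar amount (log2 -0.22 and -0.24, adjusted p = 0.0193 and 0.0435, edgeR quasi-likelihood test). Of all tested hairpins 6.08% were called higher and 19.3% lower in that fit. Among the other markers 3 of the 8 miR-35 family members were called higher, and 0 of the 3 neuronal hairpins were called. The summed level of that family was 84654 to 97986 CPM without and 100256 to 102903 CPM with rotenone, while the ranges of mir-60 overlapped (2102 to 2495 and 1871 to 2157 CPM). Their part in the fall of mir-240 was not tested.

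At day 15 the treatments overlapped for both hairpins. The log2 difference of mir-240 was -0.01 ± 0.06 SE (95% interval -0.14 to 0.12) and that of mir-786 was 0.01 ± 0.09 (95% interval -0.18 to 0.21), with adjusted p = 0.970 for both by edgeR's quasi-likelihood test. No hairpin of 181 was called at this age (0%), while 3 had an unadjusted p under 0.05; DESeq2 and limma-voom made 0 calls. The intervals allow a change of mir-240 of at most 0.14 in either direction on the log2 scale, on the same scaling that gave -0.25 at day 5.

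Whether the rotenone difference changed with age was asked by the interaction. It was 0.24 ± 0.09 SE for mir-240 (95% interval 0.05 to 0.42; adjusted p = 0.0987, edgeR quasi-likelihood test) and 0.22 ± 0.14 for mir-786 (95% interval -0.06 to 0.51; adjusted p = 0.324), so neither passed. With a lane term the value of mir-240 was again 0.24 and passed (adjusted p = 0.0434). Within lane L006 both passed (0.29 and 0.39, adjusted p = 0.0184 and 0.0111), and within lane L007 neither did (0.24 and -0.10, adjusted p = 0.529 and 0.846). The day 15 difference within lane L006, and the day 5 difference within lane L007, compares 1 library with 1, whose spread was taken from the other age. The share of all hairpins called was 6.63% in the fit over all libraries, in which neither member passed, and 20.3% within lane L006. With the lane term 29 of 181 hairpins were called, and within lane L007 0 of 178 (19 at an unadjusted p under 0.05, edgeR). The larger rise with age after rotenone, 3.03-fold against 2.57-fold for mir-240, is this same interaction and is therefore not shown to differ.

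**Figure D3:**
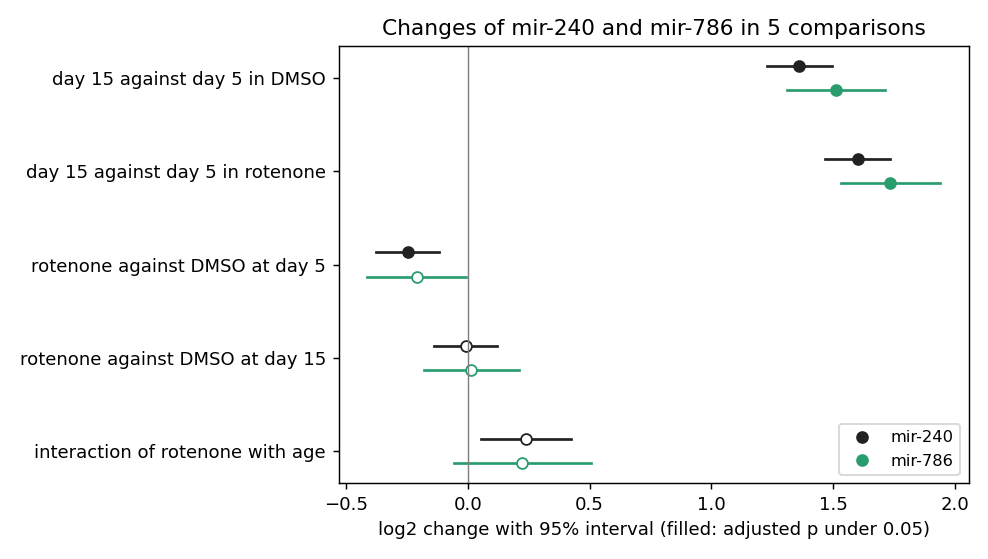
Log2 changes of mir-240 (black) and mir-786 (green) in 5 comparisons, with 95% intervals on the x axis; filled points have an adjusted p under 0.05 and open points do not. The intervals of the partners overlap in every comparison, and only the changes with age and the day 5 fall of mir-240 are filled.

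The order of the groups can be read from these values. For both hairpins the day 15 groups lie highest and cannot be placed in an order, since their libraries overlap. For mir-240 day 5 DMSO comes next and day 5 rotenone lowest, with no overlap between them. For mir-786 the day 5 groups overlap.

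The ratio of the partners within a library does not depend on the scaling, and it shows whether they moved together. At day 5 there were 2.14, 2.57 and 1.78 reads of mir-786 for every 100 reads of mir-240 in the DMSO libraries and 2.26, 2.12 and 2.29 in the rotenone libraries. At day 15 there were 2.56, 2.48 and 2.18 in DMSO and 2.56, 2.72 and 2.07 in rotenone. These values overlapped between all groups, and in each library mir-240 had at least 36.7 reads for every read of mir-786. The group means were 2.16 ± 0.393, 2.22 ± 0.0934, 2.41 ± 0.195 and 2.45 ± 0.340 (SD, n = 3).

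**Figure D4:**
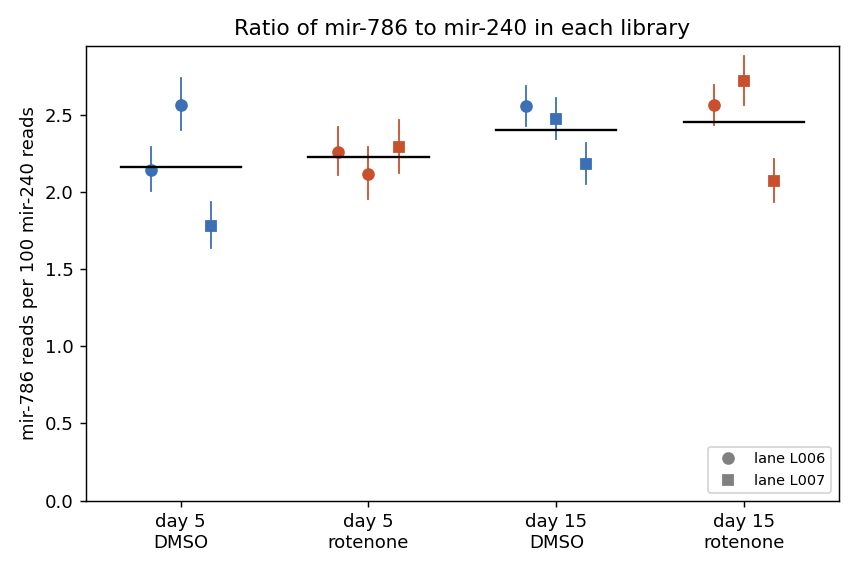
Reads of mir-786 for every 100 reads of mir-240 in each library, with exact 95% counting intervals as vertical lines and the group mean as a horizontal bar. Circles are lane L006 and squares lane L007; the lowest value, 1.78, is day 5 DMSO replicate 3 and the highest, 2.72, is day 15 rotenone replicate 2.

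Counting error alone gave exact (Clopper-Pearson) 95% intervals with a half-width of 5.06% to 8.40% of the ratio. In the day 5 DMSO group the interval of replicate 2 was 2.40 to 2.74 and that of replicate 3 was 1.64 to 1.93, so these libraries differed by more than counting error. The highest ratio in a group was 1.08 to 1.44 times the lowest. The group means lay closer together than the libraries of day 5 DMSO did.

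The ratio was 1.11 times as high at day 15 as at day 5 (log2 difference 0.15), which did not pass the exact two-sided permutation test with labels exchanged within treatment (p = 0.17, 6 against 6 libraries; adjusted p = 0.8 over 6 tests of the ratio). Of the 6 day 15 libraries, 4 lay above the median of all 12. For rotenone against DMSO the log2 difference was 0.04 (p = 0.705, exact two-sided permutation test within age; adjusted p = 0.8). The smallest p these tests allow is 0.005. Single contrasts of 3 against 3 libraries, whose smallest possible p is 0.1, gave differences of 0.02 to 0.17 and exact p-values of 0.4 to 0.8. Within lane L006 the log2 differences were 0.18 for age and -0.05 for rotenone, and within lane L007 0.22 and 0.20.

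Levels of the partners within an age were compared in 6 libraries each, with no correlation over all 12 because the ages form separate clusters. The 6 libraries of an age hold both treatments and were not centred by treatment. Any treatment difference, such as that of mir-240 at day 5, therefore enters the correlation. At day 5 Pearson's r was 0.50 (exact permutation p = 0.319) and Spearman's rho -0.03 (p = 1.0, exact permutation). At day 15 r was -0.94 (exact permutation p = 0.0083, adjusted p = 0.0167 over both ages) and rho -0.77 (p = 0.103, exact permutation). That value rested on a few libraries and on the scaling: r was -0.53 without the 2 libraries farthest from the median of mir-240, and -0.16 (exact permutation p = 0.763) with library size alone. Both hairpins of a library share its scaling factor.

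Other neighbouring hairpins give a frame for how closely partners moved. The table has 26 pairs of tested hairpins that follow each other on one strand at most 1000 bases apart, made of 40 hairpins, so some pairs share a member. With age in DMSO the partners mir-240 and mir-786 differed by 0.15 on the log2 scale, where 19 of the 25 other pairs (76.0%) differed by more and the median was 0.45. In rotenone they differed by 0.14, again with 19 of 25 pairs above and a median of 0.34. Both partners rose by more than 1 on the log2 scale in 4 pairs in DMSO and 3 in rotenone.

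Among the closest-spaced pairs mir-37 and mir-38 of the miR-35 cluster, 2 bases apart, changed by 0.51 and 0.84 with age in DMSO. The pair mir-42 and mir-43, 4 bases apart, changed by 1.10 and 0.83, and mir-65 and mir-66, 6 bases apart, by -0.15 and 0.16. With 8 bases between them, mir-35 and mir-36 changed by 0.48 and 0.96, and mir-39 and mir-40 by 1.22 and 1.15. The partners mir-39 and mir-40 differed by 0.07, less than mir-240 and mir-786 did. With 15 bases between them, mir-43 and mir-44 changed by 0.83 and 0.17 and so differed by 0.66. At the same spacing as mir-240 and mir-786, mir-40 and mir-41 changed by 1.15 and 1.60. The per-base level ratio of mir-240 to mir-786, 39.2, was exceeded by 3 of the other 25 pairs, whose range was 1.06 to 190 and whose median was 4.55. These counts describe the table, with no test, and pairs with few reads carry more counting error.

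**Figure D5:**
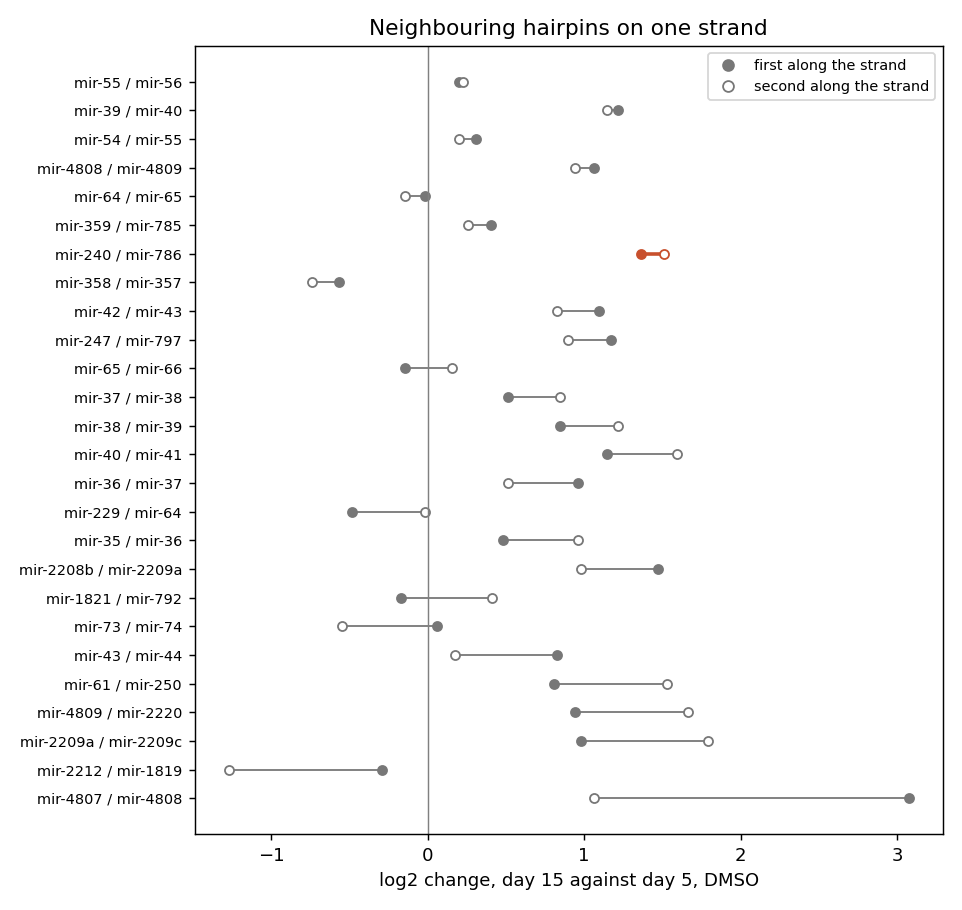
Log2 change from day 5 to day 15 in DMSO (x axis) of 26 pairs of neighbouring hairpins, ordered by the difference between partners; filled points are the first and open points the second hairpin along the strand. The pair mir-240 and mir-786, in red, has values of 1.36 and 1.51, and 19 pairs have a wider gap.

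The X chromosome holds 70 hairpins of the table, of which 61 were tested. With age in DMSO 25 of them rose and 23 fell (41.0% and 37.7%, against 38.1% and 42% of all tested), with a median change of 0.07 against -0.02. In rotenone 26 rose and 19 fell (42.6% and 31.1%, against 37.6% and 37.6% of all tested), with a median of 0.18 against 0.01. After rotenone at day 5, 3 were higher and 14 lower (4.92% and 23.0%, against 6.08% and 19.3%).

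The hairpins with the most similar course over the 12 libraries were found by the root mean square difference of log2 CPM after each hairpin was centred on its own mean. Closest to mir-240 among 180 hairpins were mir-84, a let-7 family member that acts in developmental timing, at 0.08, mir-239a at 0.12, mir-34, known from worm stress responses, at 0.14, mir-786 itself at 0.17, and mir-795 at 0.19. Closest to mir-786 were mir-34 at 0.14, mir-240 at 0.17, mir-84 at 0.17, mir-250 at 0.23 and mir-41 at 0.24. The median hairpin lay at 0.76 from mir-240 and 0.84 from mir-786. The measure follows the change with age above all: within day 5 alone 2 of the 5 neighbours of mir-240 and 0 of those of mir-786 were again among the closest 5, and within day 15 alone 0 of either. After rotenone at day 5, on TMM scaling, mir-84, mir-239a and mir-34 were lower (log2 -0.30, -0.34 and -0.17) and mir-250 and mir-41 higher (0.27 and 0.32). The value of mir-795 was -0.18 and did not pass (adjusted p = 0.0954, edgeR quasi-likelihood test). In that fit 19.3% of all tested hairpins were called lower and 6.08% higher. The directions depend on the filter, since calls went from 11 higher and 35 lower to 43 and 5 with the stricter filter.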

How the data were processed

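Per the labels, whole N2 worms were sequenced with a TruSeq small RNA kit. The authors deposited raw whole-number counts per hairpin and library. Tools listed in the submitters' processing notes, without roles, are SAMtools 1.3.1-9, BWA 0.7.12-r1039, Trimmomatic 0.36 and bcl2fastq 1.8.4; build, hairpin reference, strand and multi-hit rules: not given in the sources used here. Groups and lanes came from the labels, and replicate numbers follow the order of deposit.

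All 250 rows entered one edgeR 4.0.16 quasi-likelihood fit (R 4.3.3; TMM, filterByExpr with a minimum count of 10, 4 group means, 12 libraries, 8 residual degrees of freedom), with Benjamini-Hochberg adjustment over 181 hairpins. SE is the log2 change divided by the square root of F. Levels are relative to all hairpin reads, and the ratio is one of reads. The ratio was tested by exact permutation. A count of 3, the limit for a hairpin with no reads, was 0.272 to 0.712 CPM. The exact intervals of the ratio cover counting error only, whereas those of log2 changes come from the fit and include the spread between libraries. By a chi-square per degree of freedom, squared differences between replicates were 28.3 to 419 times those that sampling gives, so none was taken as a copy. Positions are from Ensembl release 115, where 245 of 250 names had one place; sequences were not used here. The fit was tested on simulated data. Alternatives were RLE, library size alone, other filters, DESeq2 1.42.0, limma-voom (limma 3.58.1), a lane term, single lanes, only the groups compared, and each library left out. The members and lists were chosen with earlier results of these data known. Named hairpins are the pair, the 5 closest to each by profile, the most abundant hairpin, the 6 closest-spaced pairs and the markers. Also named are mir-40 and mir-41, at the members' own spacing, and mir-8203, added after its values were seen.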

Additional observations from a re-analysis of the deposited data

How the results depend on the processing

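In 23 alternatives each, the rise with age of mir-240 (log2 1.34 to 1.498 in DMSO, 1.501 to 1.66 in rotenone) and of mir-786 (1.40 to 1.74 and 1.64 to 1.88) kept its direction and passed. No paired analysis was possible because the labels give no replicate numbers. The cause of the changes below was not tested.

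At day 5 the rotenone difference of mir-240 did not pass with the 3 most abundant hairpins left out (-0.12), no filter (-0.16), the stricter filter (-0.039) or within lane L007 (-0.27); with a library left out it was -0.28 to -0.20 and passed. That of mir-786 was -0.32 to -0.070 with a library left out and passed without day 5 DMSO replicate 3. It also passed within lane L006 (-0.27), and its sign turned with the stricter filter (0.0019) and within lane L007 (0.093). At day 15, where neither hairpin passed, the sign of mir-240 turned with the stricter filter (0.0015), within lane L006 (0.12) and with some libraries left out (-0.052 to 0.054). That of mir-786 turned with library size alone (-0.00076), no filter (-0.0064), within lane L007 (-0.0039) and with some libraries left out (-0.011 to 0.083). The interaction of mir-240 passed with a lane term (0.24) and within lane L006 (0.29), and was 0.15 to 0.26 with a library left out; that of mir-786 passed within lane L006 (0.39), turned within lane L007 (-0.10), and was 0.08 to 0.32 with a library left out. The interaction was called for 12 hairpins, for 22 with the stricter filter, 29 with a lane term, 38 within lane L006, 0 within lane L007 and 8 to 19 with a library left out (19 without day 5 DMSO replicate 3). Day 5 calls fell from 46 to 1 within lane L007 (33 to 46 with a library left out), and day 15 calls were 3 within lane L006. Lane L007 has 1 library in each day 5 group and lane L006 has 1 in each day 15 group, so these day 5 and day 15 calls compare 1 library with 1, assumed to vary like the groups with more. By direction, day 5 calls were 11 higher and 35 lower, and 43 and 5 with the stricter filter.

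The log2 ratio of mir-786 to mir-240 changed with age by 0.08 to 0.21 and with rotenone by -0.028 to 0.10 with a library left out, its sign turning without day 5 DMSO replicate 3 or day 15 rotenone replicate 2; adding the reads of mir-8203 to mir-786, an alternative chosen after seeing the data, changed neither call. The day 15 correlation was -0.94, and -0.16 with library size alone. Depth limits mir-786 and mir-8203 more than mir-240.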
